A study of Mus musculus with 2 samples.

Results

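The genes described here encode the alpha chains of collagens, the proteins that give skin its tensile strength and anchor the epidermis to the dermis. Members were all gene symbols made of Col, a number, the letter a and a number, which gave 44 chains of the 22180 genes with a usable symbol on the array. The tissue was dorsal skin from male mice of the albino strain BALB/cAJcl, aged 7 weeks, with 1 array for a saline control and 1 array for FGF18, a fibroblast growth factor. The back had been depilated so that follicles entered anagen, their growth phase, and 6 days later 100 µg of FGF18, in saline that held heparin at 5 µg/µl, was given into the peritoneum. Whole-body γ-rays at 6 Gy followed after 24 h, and the skin was taken 4 h after irradiation. This course is written out for FGF18 only. For the saline control, depilation and its timing, heparin and irradiation are not stated. How many animals each array stands for is not stated either. An effect of FGF18, such differences in handling or hair cycle and variation between animals therefore cannot be told apart. The comparison asks how collagen transcripts in skin differed between the FGF18 and saline arrays.

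Collagen chains assemble in threes, and the structural group decides what they build. Fibrillar collagens, made mainly by dermal fibroblasts, form the cables of the dermis. Type IV chains form the sheet of the basement membrane under epithelium and around vessels, fat and muscle cells, type VII forms fibrils that anchor this sheet to the dermis, and network-forming chains build beaded filaments or lattices. FACIT collagens sit on the surface of fibrils, and transmembrane collagens such as type XVII hold epithelial cells to the sheet.

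Arrays carry no read depth, and their number limits the precision. With 1 array per group there is no replicate, no significance test and no standard error, so every value below compares these 2 arrays. Intensities are linear RMA values, and each difference is the FGF18 value minus the saline value after log2(intensity + 1), a scale on which folds of dim genes are understated. A chain whose intensity lay below its array's median over all transcript clusters (14.0 in saline and 13.8 after FGF18) is given by its intensities with no fold. By that rule 34 chains lay above the median on both arrays and 10 did not. As a yardstick, differences from separate clusters of the same symbol scattered with a standard deviation of 0.24 over 319 symbols. Only clusters at or above the median level of genes entered it, so it does not cover dim ones. It reflects how probe sets disagree and says nothing about animals. Chains carry probes of different efficiency, so intensities are compared between arrays and never between chains.

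The promoters of Col1a2, Col3a1 and Col17a1 are shown as examples of the chains described below. The dermal chains Col1a2 and Col3a1 read lower after FGF18 and Col17a1 read higher, all by less than 1.5-fold. For Col1a2 the size of the difference depended on the cluster used. Each run is the 250 bases before the annotated start in RefSeq (GRCm38.p6), 5′ to 3′ on the strand of the gene. Capitals mark 3 motifs searched on both strands: the TATA box letters TATAAA, the letters CCAAT of the box of that name, which on the other strand are read in reverse complement, and the GC box letters GGGCGG. None of them contains another.
Col1a2 (chr6:4505368-4505617, + strand): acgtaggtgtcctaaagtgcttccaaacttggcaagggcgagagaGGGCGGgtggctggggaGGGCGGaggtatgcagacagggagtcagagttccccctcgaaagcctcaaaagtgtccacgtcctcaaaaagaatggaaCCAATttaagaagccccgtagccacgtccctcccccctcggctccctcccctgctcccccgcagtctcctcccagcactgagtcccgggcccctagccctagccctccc
Col3a1 (chr1:45311288-45311537, + strand): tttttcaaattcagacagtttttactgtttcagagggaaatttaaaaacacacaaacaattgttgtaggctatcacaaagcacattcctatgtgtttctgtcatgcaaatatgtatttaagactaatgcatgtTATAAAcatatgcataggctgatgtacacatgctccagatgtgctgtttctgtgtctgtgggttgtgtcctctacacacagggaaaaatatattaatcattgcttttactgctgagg
Col17a1 (chr19:47692043-47692292, - strand): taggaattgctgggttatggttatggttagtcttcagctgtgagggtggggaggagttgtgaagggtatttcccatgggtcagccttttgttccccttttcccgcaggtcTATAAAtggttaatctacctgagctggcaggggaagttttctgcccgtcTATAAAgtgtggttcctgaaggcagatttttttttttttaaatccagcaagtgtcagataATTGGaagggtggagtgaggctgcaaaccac
The dermal pair do not share a motif in these windows. Col1a2 holds GGGCGG at 2 places and CCAAT at 1, with no TATAAA, whereas Col3a1 holds only TATAAA. Col17a1 holds TATAAA at 2 places and CCAAT at 1. The GC content is 62.0% in Col1a2, 35.2% in Col3a1 and 46.0% in Col17a1. The RefSeq table matched 35 of the 44 chains, with 38 promoters. Of these 35 chains 5 held TATAAA, 13 held CCAAT and 21 held GGGCGG in at least 1 promoter. Among all 32851 promoters of the same length, counted by promoter and not by gene, the shares were 12.4%, 33.8% and 32.7%. A match is a description of letters and not a binding site.

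No collagen chain differed by 1.5-fold between the arrays. Among all genes 6.76% did so, with 2.61% higher and 4.15% lower, and in the brighter genes, those with a mean over both arrays of at least the median of genes (4.15 on the log2 scale), the share was 8.28%. Of the 44 chains 22 were higher after FGF18, 19 were lower and 3 were exactly equal. Over all genes 49.5% were higher and 45.5% lower. The median difference of the chains was 0.028, against 0.00 over all genes. Over the 30 brighter chains, of which 15 were higher and 13 lower, it was also 0.028, while all brighter genes had a median of 0.075 and were higher in 59.4% of cases and lower in 38%. The median absolute difference of all chains was 0.194, against 0.187 over all genes. The extremes were Col4a1 at 0.56 and Col2a1 at -0.56, each 1.47-fold apart between arrays. A threshold of 1.2-fold, chosen after the values were seen, took 9 chains higher and 7 lower, while 17.9% of all genes were higher by that rule and 17.2% lower. Differences of 18 chains exceeded the 0.24 that separate clusters of a symbol gave, where 38.5% of all genes did. Of these 18 chains 13 lay above the array medians. The shares of collagen chains past these smaller limits were thus near those of genes at large.

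**Figure D1:**
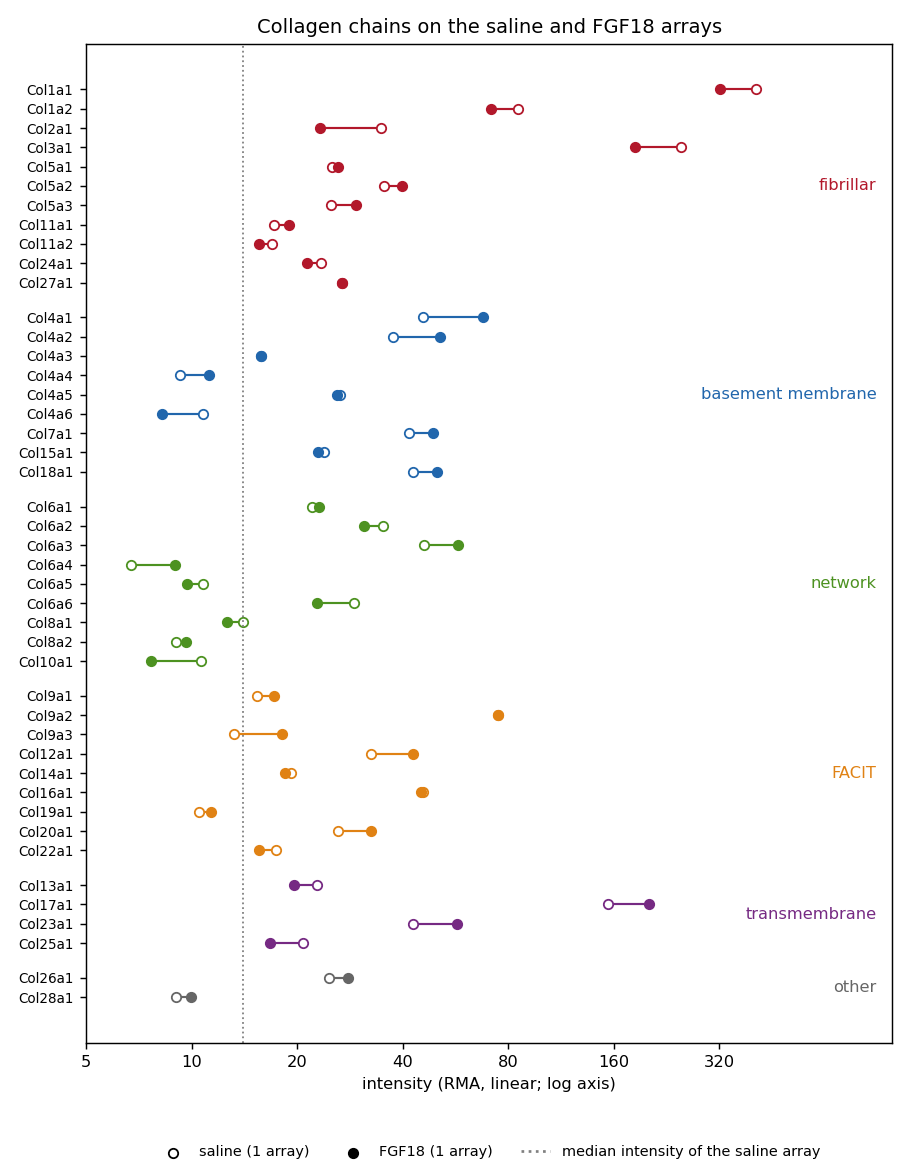
Intensity of each of the 44 collagen chains (log axis, linear RMA units) on the saline array (open circles) and the FGF18 array (filled circles), 1 array each, grouped by structure. Col1a1, Col1a2 and Col3a1 read lower after FGF18, Col4a1, Col4a2, Col17a1 and Col23a1 read higher, and 3 chains have coinciding circles.

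The type I and III chains read lower on the FGF18 array, while the type V chains did not. Col1a1, which with Col1a2 makes type I collagen, the main fibril of the dermis, read 408 in saline and 323 after FGF18, 1.26-fold lower. Col1a2 read 85.5 in saline and 71.8 after FGF18, 1.19-fold lower. Col3a1, whose product forms fine fibrils beside type I, read 249 in saline and 184 after FGF18, 1.35-fold lower. All 3 chains thus lay on the same side, by differences of -0.33, -0.25 and -0.43. Once a loess curve of differences against intensity, fitted over all genes, was subtracted (trend subtraction), they were -0.45, -0.35 and -0.54. Col1a2 was read by 2 clusters, the brighter at 191 and 175 and the dimmer at 37.9 and 29.0. On the brighter cluster alone its difference was -0.12, within the disagreement of probe sets.

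Type V chains sit in the core of type I fibrils and limit their width. Col5a1 read 25.2 in saline and 26.2 after FGF18, a difference of 0.056. Col5a2 read 35.4 and 39.9 on those arrays, 1.13-fold higher, and Col5a3 read 24.9 and 29.5, 1.18-fold higher. These 3 differences lay between 0.056 and 0.24, on the other side from types I and III but within the disagreement of probe sets. For Col5a2 the difference was 0.085 after trend subtraction, and for Col5a3 it was 0.15 with a pseudocount of 16. Col5a2 is the next protein-coding gene to Col3a1 on the chromosome, and the neighbours stood at 0.17 and -0.43. Col5a1 had 2 clusters of opposite sign, at 0.21 and -0.099.

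Other fibrillar chains include those of cartilage. Col2a1, the main collagen of cartilage, read 34.6 in saline and 23.2 after FGF18, the lowest difference of any chain at -0.56, and -0.37 with a pseudocount of 16. Of 6 cartilage markers fixed as a list, 1 (Sox9, which hair follicles also express) lay among the brighter genes and 4 fell below the array median on at least 1 array. The aggrecan gene Acan read 8.45 and 11.6 in saline and FGF18, and Comp read 17.8 and 14.3, above both array medians. Whether the sample held cartilage was not tested. Col11a1 and Col11a2, partners in type XI, went from 17.1 to 19.0 and from 16.9 to 15.6 between saline and FGF18, which places their differences at 0.14 and -0.11. Col24a1, a minor fibrillar chain, stood at -0.13 (23.4 in saline, 21.3 after FGF18), and Col27a1 had the same value of 26.8 on both arrays. Over the 11 fibrillar chains the median difference was -0.11, with 4 higher, 6 lower and 1 equal.

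**Figure D2:**
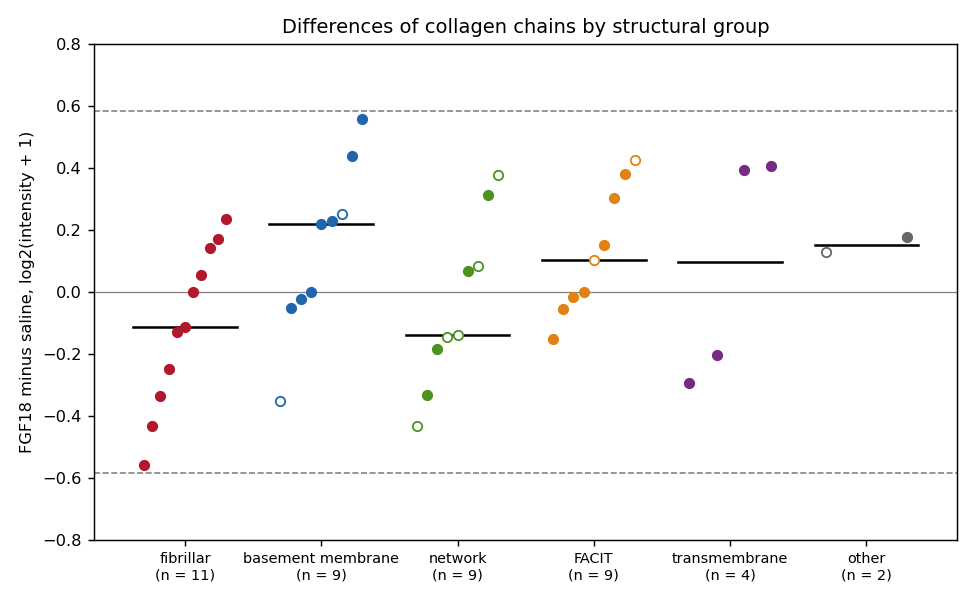
Difference of each collagen chain (FGF18 minus saline, log2 scale) by structural group, with the group median as a black bar and dashed lines at 1.5-fold. Open circles are chains below the array median on at least 1 array. The fibrillar median lies at -0.11, the basement membrane median at 0.22, and no chain crosses a dashed line.

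Of the 9 chains of the basement membrane zone 5 were higher, 3 lower and 1 equal, a share of higher chains near that of genes at large (49.5% of all genes and 59.4% of brighter ones). The highest were the most widespread type IV chains. Col4a1 and Col4a2 together make the type IV collagen found in nearly all basement membranes. Col4a1 read 45.8 in saline and 67.9 after FGF18, 1.47-fold higher, and Col4a2 read 37.5 and 51.2, 1.36-fold higher. The pair thus differed from each other by only 0.12 on the log2 scale. Their genes lie head to head, and in the RefSeq table the starts are 20 bases apart, with the start of each gene inside the other's first transcribed bases. The stretch between the starts (chr8:11312806-11312825, GRCm38.p6, + strand) is shown because it belongs to both genes, with GGGCGG in capitals.
Between the starts of Col4a2 and Col4a1: gtgcgcGGGCGGcgtctcca

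The other type IV chains, which are found in a narrower set of tissues, were mostly dim or equal on both arrays. Col4a5 read 26.5 in saline and 26.0 after FGF18, a difference of -0.022. Col4a6, its partner in skin, read 10.7 and 8.21, both below the array medians. Col4a3 had an equal value of 15.8 on both arrays. Its neighbour Col4a4 read 9.27 and 11.2, higher after FGF18 but below both array medians. The pair Col4a1 and Col4a2, with differences of at least 0.44 (0.34 after trend subtraction), can therefore be set against Col4a5 alone.

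The remaining chains of the basement membrane zone differed little. Col7a1, the anchoring fibril chain that keratinocytes and fibroblasts make, read 41.7 in saline and 49.0 after FGF18, a difference of 0.23 and of 0.13 after trend subtraction. Col18a1, the source of the fragment endostatin, read 42.8 and 50.0, a difference of 0.22 and of 0.12 after trend subtraction. Its relative Col15a1 read 23.8 and 22.9, a difference of -0.053. The median over the 9 chains of this group was 0.22, and 0.12 after trend subtraction.

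The transmembrane group split evenly. Col17a1, the hemidesmosomal collagen of basal keratinocytes and of the follicle's stem cell region, read 154 in saline and 203 after FGF18, 1.31-fold higher. Col23a1, also made by epidermal keratinocytes, read 42.9 and 57.2, 1.32-fold higher. Both stayed near 0.3 after trend subtraction, at 0.29 and 0.30. Col13a1 and Col25a1, known from the neuromuscular junction and from developing muscle, went from 22.8 to 19.6 and from 20.8 to 16.7, at -0.20 and -0.30. With a pseudocount of 16 they were at -0.12 and -0.17. The 4 transmembrane chains had a median of 0.095, with 2 higher and 2 lower. Their pairing here was made after the values were seen.

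Network chains gave no common direction. Type VI collagen, which forms beaded filaments around cells, is built from Col6a1, Col6a2 and 1 further chain. Col6a1 read 22.1 in saline and 23.2 after FGF18 (0.068), Col6a2 read 35.3 and 30.9 (-0.18) and Col6a3 read 46.2 and 57.7 (0.31). The 3 main partners therefore spread over 0.50. Among the other sets of partner chains the spread ran from 0.086 for Col1a1 and Col1a2 and 0.12 for Col4a1 and Col4a2, through 0.18 for type V, to 0.43 for type IX, some of whose chains were dim. Col6a1 had 2 clusters, of which the dimmer was at exactly 11.3 on both arrays, and the brighter stood at 0.14. A further cluster, shared with other symbols and so left out of the main value, read 135 and 151 (0.16). Col6a6, a chain that can take the place of Col6a3, read 29.0 and 22.9 (-0.33, and -0.21 with a pseudocount of 16). The other network chains, Col6a4, Col6a5, Col8a1, Col8a2 and Col10a1, lay below the array median on at least 1 array, with intensities from 6.70 to 14.1. The network median was -0.14 over 9 chains.

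Of 9 FACIT chains 5 were higher, 3 lower and 1 equal. Col12a1, which links type I fibrils to their surroundings, read 32.6 in saline and 42.7 after FGF18, 1.30-fold higher. Col14a1, its close relative on dermal fibrils, read 19.3 and 18.5, a difference of -0.057. Col16a1, found at the dermal-epidermal junction, read 45.7 and 45.1 (-0.018), and Col20a1 read 26.2 and 32.6, 1.23-fold higher. Col9a2, a type IX chain, had the same value of 74.7 on both arrays, and its partners Col9a1 and Col9a3 went from 15.4 to 17.2 and from 13.2 to 18.1. Col19a1 was below both array medians, and Col22a1, a collagen of muscle-tendon junctions, read 17.4 and 15.6, a difference of -0.15. The median of the 9 measured FACIT chains was 0.10, and over the 5 brighter ones it was 0.00. Outside the 5 structural groups, Col26a1 read 24.7 and 28.0 (0.18, and 0.11 with a pseudocount of 16) and Col28a1 was below both array medians.

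**Figure D3:**
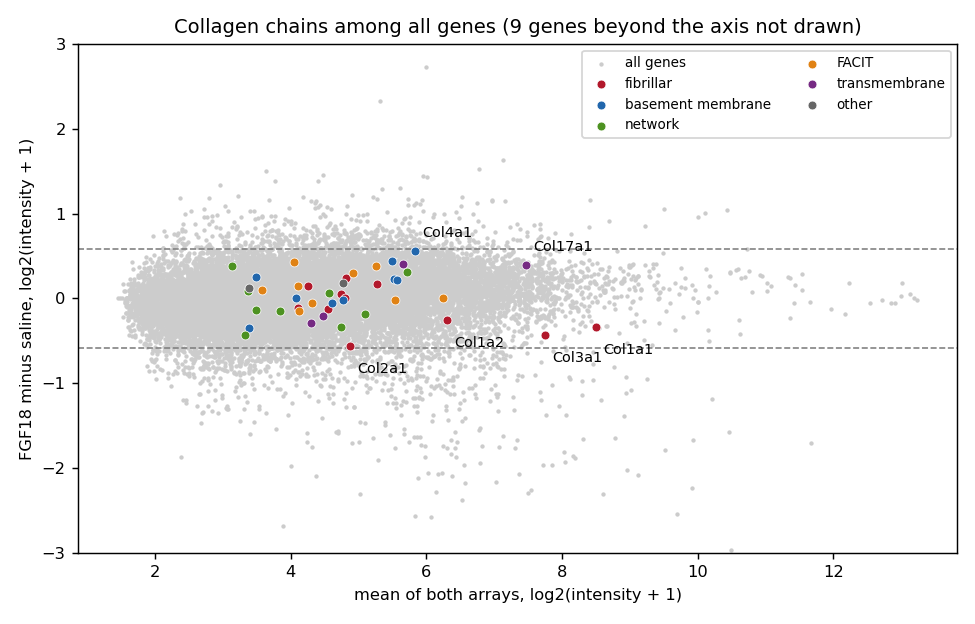
Difference (FGF18 minus saline) against the mean of both arrays, both on the log2(intensity + 1) scale, for all genes (grey) and the 44 collagen chains (coloured by group), with dashed lines at 1.5-fold and 9 genes beyond the vertical axis not drawn. The chains lie inside the band of the grey points, with Col4a1 and Col2a1 closest to the lines.

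Equal values recur among these chains. Col4a3, Col9a2 and Col27a1 and the dimmer Col6a1 cluster had identical deposited values on both arrays, which is 4 of 47 collagen clusters. Among all 41345 clusters, 2026 (4.90%) were identical in this way. What produced them was not tested, and a difference of 0.00 for these chains is not a measure of how closely the samples matched.

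Genes that make, process, link or bind collagen were taken from a list by role, and 55 of its 61 genes were measured. They were as evenly split as the chains, with 29 higher, 23 lower and 3 equal and a median of 0.018. At 1.5-fold 3 were higher and 1 lower, where 2.61% and 4.15% of all genes were. The 3 higher genes were Fn1, Itga1 and Lox, and the lower gene was Ddr2. None of these 4 reached 1.5-fold with a pseudocount of 16, where Fn1 was at 0.53, Itga1 at 0.42, Lox at 0.34 and Ddr2 at -0.52. After trend subtraction only Lox and Ddr2 did, with Fn1 at 0.58 and Itga1 at 0.55.

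In the endoplasmic reticulum, chains are hydroxylated, glycosylated and folded before export. P4ha1, the catalytic subunit of a prolyl 4-hydroxylase, read 35.0 in saline and 47.2 after FGF18, 1.34-fold higher. P3h4, which helps lysyl hydroxylation, read 24.8 and 18.1, 1.35-fold lower, and P4hb, the partner subunit of the prolyl 4-hydroxylases, was near equal at 219 on both arrays. Hydroxylases thus had no common direction, with 4 of 12 higher, 6 lower and 2 equal. Colgalt1, which adds galactose to hydroxylysine, was 1.30-fold higher. Of 7 chaperone and export genes 5 were lower, where 45.5% of all genes and 38% of brighter ones were. Their median was -0.29, and none reached 1.5-fold. Creb3l1, a transcription factor of collagen secretion, read 23.4 and 18.3, a difference of -0.34. Mia3, which loads procollagen for export, was at 0.18. Serpinh1, the collagen-specific chaperone HSP47, named after its value was seen, read 64.9 and 53.0, 1.22-fold lower.

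Outside the cell, propeptides are trimmed and fibrils cross-linked. Bmp1, the procollagen C-proteinase, read 44.4 in saline and 60.5 after FGF18, 1.35-fold higher, and the enhancer gene Pcolce2 was 1.24-fold lower. Among lysyl oxidases, which start the cross-links, Loxl4 stood at 0.13 and Loxl1 at -0.27. Lox read 10.3 in saline, below that array's median, and 17.3 after FGF18. Fn1, the fibronectin on which fibrils assemble, read 39.9 and 64.5, 1.60-fold higher, and Postn, a matricellular partner of type I collagen, read 124 and 177, 1.42-fold higher. Sparc, a collagen-binding protein, read 163 and 164. Both directions therefore occurred among processing genes. Of 7 fibril partners 6 were higher, where 59.4% of brighter genes were, but Sparc, Tnxb and Thbs2 lay near 0.00 and after trend subtraction 3 were higher and 4 lower.

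The lowest single differences of the list were those of the receptor gene Ddr2 and the turnover gene Pepd. As roles, receptors and uptake had a median of 0.17 and turnover one of 0.066. Ddr2, a tyrosine kinase receptor for fibrillar collagen, read 49.1 in saline and 29.4 after FGF18, 1.65-fold lower. Itga1, an integrin chain that binds collagen, type IV included, read 24.5 and 38.1, 1.53-fold higher. Pepd, which recycles proline from collagen peptides, was 1.44-fold lower, and Mmp14, a membrane-bound collagenase, was 1.28-fold higher. Of 8 receptor and uptake genes 6 were higher and 2 lower, where 49.5% of all genes and 59.4% of brighter ones were higher. With the brightest cluster of each symbol 5 were higher and 3 lower. Of these 8 genes 3 lay below the array median on at least 1 array. Of 7 turnover genes 4 were higher and 3 lower, or 3 and 4 after trend subtraction.

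**Figure D4:**
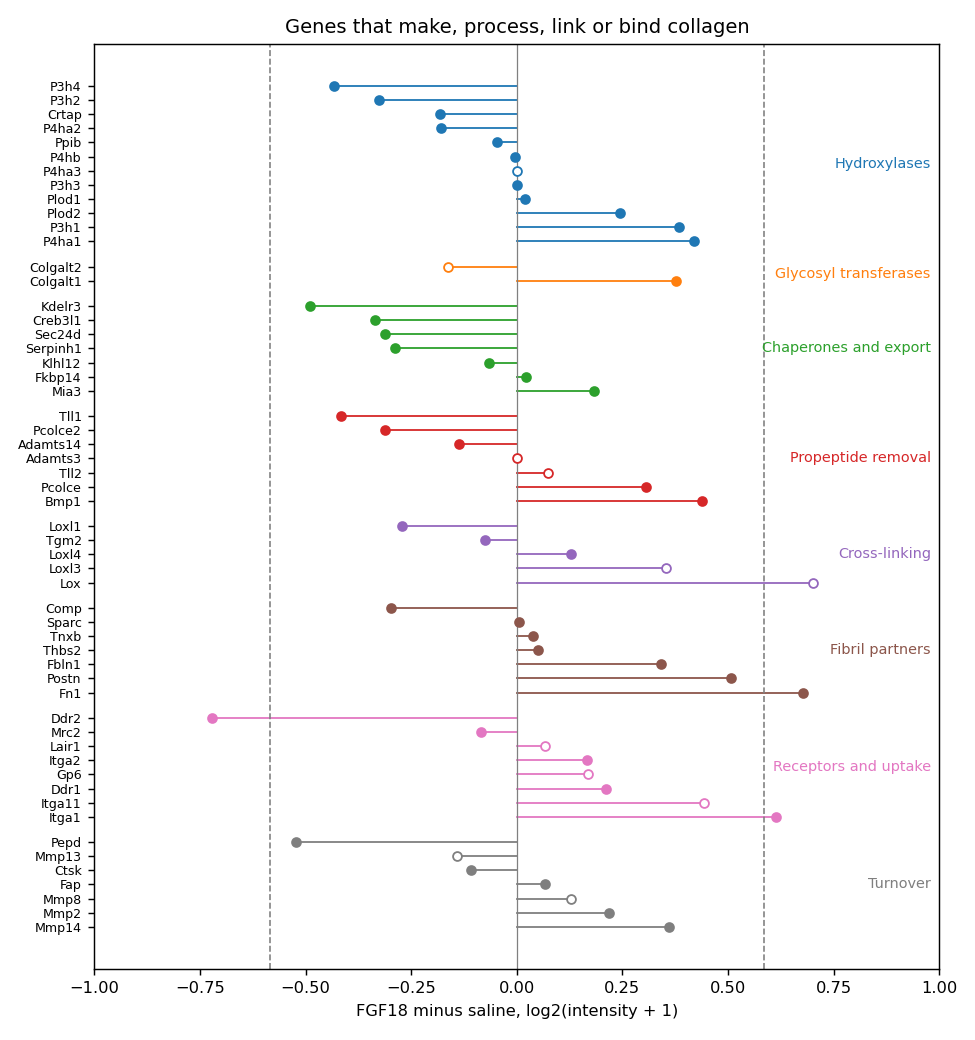
Difference (FGF18 minus saline, log2(intensity + 1) scale) of the 55 measured genes that make, process, link or bind collagen, by role, with dashed lines at 1.5-fold. Open circles are genes below the array median on at least 1 array. Fn1, Itga1 and Lox lie past the upper line and Ddr2 past the lower one.

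In whole skin, fewer cells of a type and less RNA per cell cannot be told apart, so marker lists of the cells that make these collagens are given beside the chains. Beside their counts stand the shares over all genes, 49.5% higher and 45.5% lower. For brighter genes the shares were 59.4% and 38%. Of 10 dermal fibroblast markers without collagens 7 were higher and 3 lower after FGF18, and their summed intensity was 573 in saline and 664 after FGF18. That gain lay in Dcn (difference 0.42), since the other 9 summed to 307 and 306. The lower 3 were Lum at -0.95, Dpt at -0.69 and Thy1 at -0.14, which the higher members among those 9 offset in the sum. Basal keratinocyte markers, from the cells that make Col17a1, had 4 of 7 higher and 3 lower, with sums of 1462 and 1382, or 887 and 1054 without Krt14. Suprabasal keratinocyte markers were all lower, 8 of 8, with sums of 14885 and 3943, the largest shift of any marker list here. Endothelial markers, from vessels that are wrapped in type IV collagen, had 3 higher and 3 lower, with sums of 121 and 111, or 90.4 and 91.9 without Cdh5. Smooth muscle and pericyte markers had 4 of 6 higher, with sums of 519 and 577 (201 and 230 without Des). Adipocyte markers had 3 of 6 higher, with sums of 491 and 698 (121 and 153 without Fabp4). Dermal papilla markers had 5 of 8 higher, with sums of 370 and 503 (235 and 271 without Wif1). Skeletal muscle markers were bright on both arrays, with 2 of 6 higher and sums of 4863 and 4423 (3031 and 3052 without Myh4), which shows muscle in the sampled skin. All 5 macrophage markers were higher (89.6 and 115). Of these Csf1r stood at only 0.042, and at -0.013 after trend subtraction. Adgre1 lay below both array medians, at 6.82 in saline and 12.4 after FGF18. Of 3 measured Schwann cell markers 1 was higher (45.5 and 44.4), and of 6 cartilage markers 4 were (86.1 and 91.2). No marker was listed at 0, and the part of any of these cell types in the collagen differences was not tested.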

How the data were processed

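Trizol-extracted total RNA was biotin-labelled for Affymetrix Mouse Gene arrays, per the labels. The deposited values are intensities that the authors made with Expression Console and RMA, per the submitters' processing notes, in versions not given in the sources used here. Their range, 1.39 to 11532, was read as a linear scale. The platform annotation gave 1 symbol to 23521 of 41345 transcript clusters, several to 1814 and none to 16010. Only the first were used, and clusters of a symbol were averaged after log2(intensity + 1), in Python 3.11.15 with pandas 2.3.3. With 1 array per group no test was run, and folds of 1.5 were counted, with a loess trend (statsmodels 0.14.6, span 0.3) and a pseudocount of 16 among the alternatives. The steps were tested on simulated data. Brighter chains were all named, as were the 3 highest and 3 lowest brighter genes of the collagen-related list and the extremes of each role. Other genes were named for context after their values were seen. The members and lists were chosen with earlier results of these data known. Plod3, Fkbp10, Adamts2, Loxl2, Fbn1 and Itga10 lacked a single-symbol cluster and were not used here.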

Additional observations from a re-analysis of the deposited data

How the results depend on the processing

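Each choice was changed in turn. For the 30 brighter chains, the pseudocount and centring (on a median difference of 0) cannot turn the sign of a chain read by 1 cluster, and the cluster choices touch only chains with several clusters, so trend subtraction is the setting that could. It turned no sign but took the equal chains Col9a2 and Col27a1 to -0.10 and -0.053. The counts at 1.5-fold stayed at 0 except that trend subtraction gave 1 lower chain, Col2a1 at -0.62. At 1.2-fold, added after the data were seen, 9 chains were higher and 7 lower, and at 2-fold none was. Restriction to members at or above the 75th percentile of level moved the medians to 0.22 for all chains (12 chains) and 0.17 for the collagen-related genes (21 genes). By group it gave -0.33 for fibrillar (Col1a1, Col1a2 and Col3a1) and 0.33 for basement membrane chains (Col4a1, Col4a2, Col7a1 and Col18a1). It gave 0.40 for transmembrane (only Col17a1 and Col23a1), 0.31 for network (only Col6a3) and -0.0090 for FACIT chains (2 chains). Restriction at the median level moved FACIT to 0.00. Trend subtraction moved the collagen-related median to -0.022, the basement membrane median to 0.12 and the transmembrane median to 0.026, and the last was 0.39 without its farthest member. A pseudocount of 16 gave medians of 0.11 for basement membrane, -0.060 for fibrillar, -0.059 for network and 0.045 for FACIT chains. Without the farthest member the fibrillar median was -0.057 and the FACIT median 0.051. The trend at the chains ran from -0.049 to 0.11. No paired analysis was possible because each group has 1 array, and for the same reason no array could be left out. Signal over background limits the 10 dim chains.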
